A study of Mus musculus with 16 samples.

Results

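The 10 genes Cxcl12, Kitl, Lepr, Col1a1, Col1a2, Col3a1, Sparc, Bglap, Pecam1 and Cdh5 are known for the mesenchymal and endothelial cells of the bone marrow niche. They were taken by symbol from the normalized counts of mCherry- marrow cells, called stroma, and of mCherry+ B-ALL cells, called tumor. The stroma table listed 6 of the 10 among 13344 genes, and the tumor table listed 9 of the 10 among 15080 genes. The same 6 genes had a row in both tables. Mice of both sexes were used in the study as a whole, and the sex of the mice behind each library is not given here. All mice were C57BL/6J, WT or Il6-/- (IL-6 KO), and 6 to 8 weeks old. Each had been given 500000 BCR-ABL+, Arf-/- B-ALL cells through the tail vein, received no drug and was killed 8 days later. The leukemic cells were male cells marked with mCherry by a retrovirus, and the knockout lay in the host. Cells were spun out of the femur and tibia, red cells were lysed, and the mCherry- gate took live single cells without mCherry. Hematopoietic cells are therefore part of stroma, and cells that stayed in the bone are not. The gate did not select for host cells by any other marker. WT stroma, IL-6 KO stroma, WT tumor and IL-6 KO tumor each had 4 libraries, 16 in all. The labels do not say that libraries of the same number came from the same mouse, or that the 4 libraries of a group came from separate mice, so p-values measure only the spread between these libraries.

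In the marrow, perivascular mesenchymal cells that carry the leptin receptor are a main source of the chemokine CXCL12 and of stem cell factor, which hold and feed hematopoietic stem cells and B cell precursors through the receptors CXCR4 and KIT. Osteoblasts and fibroblasts lay down the collagen matrix, and endothelial cells form the sinusoids and supply stem cell factor as well. These cells are rare and are held in matrix and bone, so that flushed or spun marrow usually contains few of them.

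In the stroma table Cxcl12, Lepr, Bglap and Cdh5 had no row and were not analysed there. None of the other 6 genes was near 0, taken as below 10 normalized counts in every library of a group, in WT or in IL-6 KO stroma. In the tumor table Bglap alone had no row. Kitl and Lepr were near 0 in IL-6 KO tumor. In WT tumor they were not, but only through WT 2 and 4 for Kitl (15.9 and 21.1) and WT 4 for Lepr (54.5). Their other WT tumor libraries were below 10 as well. Why a gene has no row is not given in the sources used here. Every gene with a row reached at least about 9.16 reads in its highest stroma library, or 10.5 reads in its highest tumor library. A read here is approximate, and is a normalized count divided by what 1 read was worth in that library. Kitl reached 10.5 reads in tumor only in WT libraries, with at most 7.85 in IL-6 KO libraries. Its contrast between genotypes in tumor is therefore not independent of its having a row.

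By this measure stroma libraries held between 11.9 M and 41.3 M reads and tumor libraries between 26.2 M and 78.3 M. Without Rn7s1 (a 7SL RNA) and the ribosomal RNA CT010467.1, which took most of the counts in IL-6 KO stroma, 9.60 M to 20.6 M reads were left in WT stroma and 2.74 M to 9.15 M in IL-6 KO stroma. A read was worth 0.399 to 0.895 normalized counts in WT libraries and 1.14 to 3.41 in IL-6 KO libraries of stroma. Depth therefore differed with genotype in stroma without overlap, and its part in the values below was not tested. The limit of 10 normalized counts for near 0 stood for fewer reads in IL-6 KO than in WT stroma. Kitl, for example, was not near 0 by it in IL-6 KO stroma, with about 5.02 to 18.1 reads. Il6 had no row in either table and gives no check of the genotype labels.

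Stroma was mostly hematopoietic by its markers. Hbb-bs, the adult beta globin, ranked between the 99.91 and 99.96 percentile of the genes of each stroma library, and S100a8, a neutrophil alarmin, between the 88.1 and 97.1 percentile. The 6 listed niche genes together held between 0.00204% and 0.0201% of a library's normalized counts outside Rn7s1 and CT010467.1. The erythroid list held between 0.987% and 4.54% in the same libraries. In bulk RNA of this kind, fewer cells of a type and less RNA per cell cannot be told apart. In tumor, Cd79a, a subunit of the B cell receptor, ranked between the 98.6 and 98.9 percentile.

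**Figure D1:**
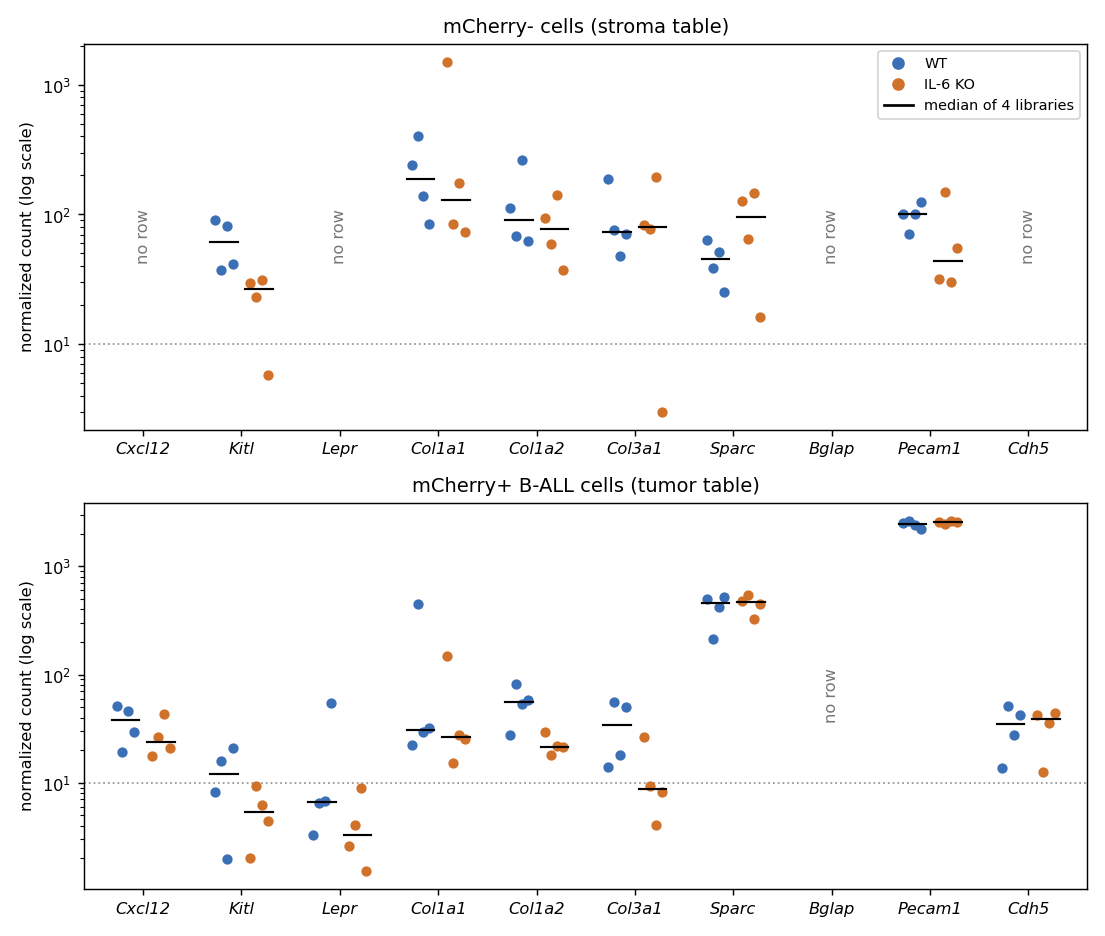
Normalized counts (log scale) of the 10 niche genes in each library of the stroma table (top) and the tumor table (bottom), as 1 point per library for WT (blue) and IL-6 KO (orange), with the median of 4 libraries as a bar and a dotted line at 10. Points of 1 group often span a wide range, as for Col1a1 with 73.3 to 1517 in IL-6 KO stroma, whereas Pecam1 in tumor lies between 2227 and 2639; the 2 tables were normalized separately, so heights are compared only within a panel.

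Kitl, which encodes stem cell factor, lies on chromosome 10 (GRCm38, positions 100015630 to 100100416, plus strand). Its normalized counts in WT stroma 1 to 4 were 90.5, 37.0, 81.5 and 41.7, and in IL-6 KO stroma 29.8, 23.2, 31.4 and 5.73. Every IL-6 KO library lay below every WT library. The log2 fold change of IL-6 KO over WT was -1.56 ± 0.70 (SE, 95% interval -3.07 to -0.05), with an unadjusted p of 0.0441 and an adjusted p of 0.535 (limma, Benjamini-Hochberg over 12202 genes). Groups did not overlap for 5.79% of all genes tested in stroma, with the IL-6 KO libraries below in 3.25% and above in 2.54%. Kitl rested on about 91.1 to 122.1 reads in WT stroma and 5.02 to 18.1 reads in IL-6 KO stroma. Over 16 alternatives its log2 fold change stayed between -1.98 and -1.03, with adjusted p between 0.333 and 0.928.

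In tumor Kitl was among the lowest genes, with 8.24, 15.9, 1.98 and 21.1 normalized counts in WT and 2.03, 9.35, 6.22 and 4.43 in IL-6 KO libraries. Its mean was under the minimum of 10 set for the test. Without that minimum its log2 fold change was -0.77 (limma adjusted p = 0.473). Cxcl12 (chromosome 6, 117168535 to 117181367, plus strand), the chemokine ligand of CXCR4, had 50.8, 19.2, 45.7 and 29.5 normalized counts in WT tumor and 17.7, 26.7, 43.3 and 21.1 in IL-6 KO tumor. The groups overlapped over most of their range, and the log2 fold change was -0.39 ± 0.39 (SE, limma adjusted p = 0.513). Cxcl12 stood at a median percentile of 21.6 in WT tumor and 18.4 in IL-6 KO tumor.

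Lepr (chromosome 4, 101717404 to 101815352, plus strand), the leptin receptor that marks perivascular mesenchymal cells, was carried by 1 tumor library. WT tumor 4 held 54.5 normalized counts, about 50.7 reads, while the other WT tumor libraries held 3.30, 6.43 and 6.84. In IL-6 KO tumor the values were 2.58, 4.04, 8.87 and 1.52. The log2 fold change was -1.24 ± 0.84 (SE, limma adjusted p = 0.320). Without WT tumor 4 it was -0.45, and the WT libraries that remain lie within the range of the IL-6 KO libraries.

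Among the niche genes the residual standard deviation (log2 scale) was largest for Col3a1 (1.84) and Col1a1 (1.58) in stroma and for Col1a1 (1.72) in tumor. Col1a1 (chromosome 11, 94936224 to 94953042, plus strand) encodes the alpha 1 chain of type I collagen. In WT stroma it had 239, 407, 139 and 83.7 normalized counts, and in IL-6 KO stroma 1517, 83.7, 174 and 73.3. IL-6 KO stroma 1 stood above all others, at the 97.1 percentile of its library, and the remaining 3 IL-6 KO libraries lay within or just below the WT range. The genotypes differed by a log2 fold change of 0.13 ± 0.84 (SE, limma adjusted p = 0.978), and without IL-6 KO stroma 1 it was -0.84 (limma adjusted p = 0.770).

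In tumor Col1a1 had 22.4, 452, 29.2 and 32.1 normalized counts in WT libraries and 147, 15.3, 27.8 and 25.5 in IL-6 KO libraries. Here 1 library of each genotype stood apart, and the other 6 lay between 15.3 and 32.1. As a log2 fold change this was -0.63 ± 0.97 (SE, limma adjusted p = 0.682), and without WT tumor 2 it was 0.37. The residual standard deviation of Col1a1 in tumor was at the 98.2 percentile of all genes tested there. The highest library had the same number in both fractions, 2 in WT (407 in stroma and 452 in tumor) and 1 in IL-6 KO (1517 and 147), although WT stroma 2, with the next WT library at 239, did not stand apart.

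Col1a2, the partner chain of type I collagen, did not stand out in the same libraries to the same degree. In stroma it was highest in WT 3 (261) and IL-6 KO 3 (142), and Col3a1 in WT 1 (189) and IL-6 KO 3 (195). Neither was thus highest in WT stroma 2 or IL-6 KO stroma 1. In tumor Col1a2 was still highest of its genotype in WT 2 (81.4, next 58.4) and in IL-6 KO 1 (29.4, next 21.8). Col3a1 was also highest there in WT 2 (56.3, next 50.2) and in IL-6 KO 1 (26.7, next 9.24). The ratio of Col1a1 to Col1a2 was 16.1 in IL-6 KO stroma 1 and 5.93 in WT stroma 2, against 0.531 to 2.13 in the other 6 stroma libraries. In tumor it was 5.54 in WT 2 and 4.99 in IL-6 KO 1, against 0.545 to 1.276 in the other 6. The 2 libraries of each fraction were picked by their high Col1a1, the numerator, so a high ratio there follows in part from that choice. These ratios of normalized counts were not corrected for length. In tumor these ratios rest on about 243 to 303 reads of Col1a1 in the 2 libraries and 11.6 to 40.2 in the rest.

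**Figure D2:**
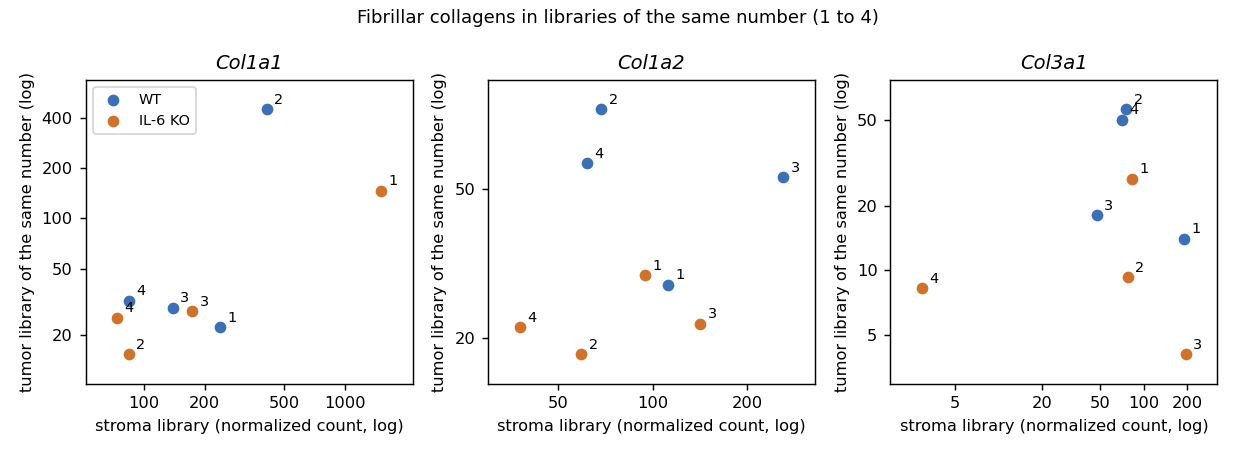
Normalized counts of Col1a1, Col1a2 and Col3a1 in each stroma library (horizontal, log scale) and the tumor library of the same genotype and number (vertical, log scale), with the number beside the point, WT in blue and IL-6 KO in orange. For Col1a1, WT 2 and IL-6 KO 1 lie at the upper right with 452 and 147 in tumor, and the other 6 lie at or below 32.1. Col1a2 and Col3a1 are also highest of their genotype in tumor WT 2 and IL-6 KO 1, but without the same separation, and in stroma neither is highest in these libraries.

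Col1a2 (chromosome 6, 4504814 to 4541544, plus strand) was the one niche gene that passed the test in either fraction. In WT tumor it had 27.7, 81.4, 53.6 and 58.4 normalized counts, and in IL-6 KO tumor 29.4, 18.1, 21.8 and 21.3. The groups overlapped by a single library, with WT tumor 1 below IL-6 KO tumor 1. WT tumor had a mean of 55.3 ± 22.1 and IL-6 KO tumor one of 22.6 ± 4.80 (SD, n = 4 each). Col1a2 was lower in IL-6 KO tumor by a log2 fold change of -1.17 ± 0.34 (SE, limma adjusted p = 0.0394), in a fit that called 19.8% of all genes tested. Leaving out any library other than WT tumor 1 took the adjusted p above 0.05, to between 0.0591 and 0.0952, as did quantile normalization (0.0941), while the log2 fold change stayed between -1.47 and -0.89 over all alternatives. Col1a2 rested on about 17.5 to 54.7 reads in WT tumor and 13.7 to 48.7 in IL-6 KO tumor.

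In stroma Col1a2 had 112, 68.6, 261 and 61.9 normalized counts in WT and 94.4, 59.2, 142 and 37.6 in IL-6 KO libraries. The highest library was WT 3 and not WT 2, which was highest for Col1a1. limma put the log2 ratio of IL-6 KO over WT at -0.51 ± 0.59 (SE, limma adjusted p = 0.819), and without WT 3 it was -0.08.

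Col3a1 (chromosome 1, 45311538 to 45349706, plus strand) encodes type III collagen, found with type I in reticular fibers. WT stroma held 189, 75.9, 47.4 and 70.5 normalized counts, and the IL-6 KO libraries 83.5, 77.6, 195 and 2.98. IL-6 KO stroma 4, with about 2.60 reads, set the direction, since the log2 fold change was -0.82 ± 1.00 (SE, limma adjusted p = 0.831) with it and 0.37 without it. In tumor the values were 14.03, 56.3, 17.97 and 50.2 in WT and 26.7, 9.24, 4.05 and 8.23 in IL-6 KO. There the log2 fold change was -1.50 ± 0.62 (SE, unadjusted p = 0.0369), which did not pass adjustment (limma adjusted p = 0.116). Col3a1 stood at a median percentile of 18.9 in WT tumor and 6.89 in IL-6 KO tumor.

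Sparc (chromosome 11, 55394500 to 55423183, minus strand), a secreted glycoprotein that binds collagen, had 63.3, 38.9, 51.1 and 25.4 normalized counts in the WT libraries of stroma and 126, 64.6, 146 and 16.2 in the IL-6 KO libraries. IL-6 KO libraries 1, 2 and 3 lay above all WT libraries and IL-6 KO 4 lay below them. IL-6 KO over WT came to a log2 fold change of 0.65 ± 0.70 (SE, limma adjusted p = 0.806). Single libraries moved it, to 1.304 without IL-6 KO stroma 4 (limma unadjusted p = 0.0390, adjusted p = 0.435) and to 0.27 without IL-6 KO stroma 3. IL-6 KO stroma 4 was the lowest library for Kitl, Col1a1, Col1a2, Col3a1 and Sparc, but not for Pecam1.

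In tumor Sparc was well measured, with 502, 213, 420.3 and 520.1 normalized counts in WT and 476, 543, 329 and 451 in IL-6 KO libraries, about 143 to 789 reads each. WT 2 was the lowest library for Sparc and the highest for Col1a1. The genotypes differed by a log2 fold change of 0.18 ± 0.27 (SE, limma adjusted p = 0.683), and it was -0.11 without WT tumor 2. Sparc kept a median percentile of 48.0 in WT tumor and 48.4 in IL-6 KO tumor.

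Bglap (chromosome 3, 88383501 to 88384464, minus strand) encodes osteocalcin, the bone matrix protein of mature osteoblasts, and had no row in either table. Its neighbours Bglap2 and Bglap3 had none either. The Bglap transcript matches that of Bglap2 at 98.9% and that of Bglap3 at 96.4% of 439 aligned bases, so reads from the 3 genes could be divided between them or assigned to a copy, and their level is uncertain.

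Pecam1 (chromosome 11, 106654217 to 106750628, minus strand) encodes CD31, an adhesion molecule of endothelial cells that platelets and many leukocytes also carry. It was the highest and the steadiest niche gene in tumor. WT tumor libraries had 2497, 2634, 2407 and 2227 normalized counts and IL-6 KO tumor libraries 2559, 2464, 2639 and 2554, which is 1579 to 4238 reads each. The log2 fold change was 0.07 ± 0.07 (SE, 95% interval -0.09 to 0.23, limma adjusted p = 0.531). Its residual standard deviation was at the 6.30 percentile of all genes tested in tumor, and it ranked between the 78.3 and 81.8 percentile of every tumor library.

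In stroma Pecam1 had 101, 70.5, 102 and 125 normalized counts in WT and 31.7, 149, 29.97 and 55.1 in IL-6 KO libraries. IL-6 KO 2 was the highest library and the other 3 lay below all WT libraries. limma put the log2 ratio of IL-6 KO over WT at -0.87 ± 0.57 (SE, limma adjusted p = 0.662). It was -1.36 without IL-6 KO stroma 2 (limma unadjusted p = 0.0286, adjusted p = 0.543) and -0.24 with array weights. Pecam1 rested on about 9.29 to 113 reads in IL-6 KO stroma against 114 to 296 in WT stroma. By rank Pecam1 stood higher in tumor than in stroma, at a lowest percentile of 78.3 in tumor against a highest of 66.6 in stroma.

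Cdh5 (chromosome 8, 104101625 to 104144511, plus strand) encodes VE-cadherin, the junction protein that defines endothelial cells more closely than CD31. In tumor it had 13.8, 50.7, 27.4 and 42.2 normalized counts in WT and 42.0, 12.5, 35.9 and 43.6 in IL-6 KO libraries. IL-6 KO over WT came to a log2 fold change of 0.01 ± 0.50 (SE, 95% interval -1.10 to 1.12, limma adjusted p = 0.993), and differences within that interval are not excluded. Pecam1 was higher than Cdh5 per kilobase in every tumor library, with 726 ± 39.3 against 8.39 ± 3.57 normalized counts per kilobase (SD, n = 8).

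**Figure D3:**
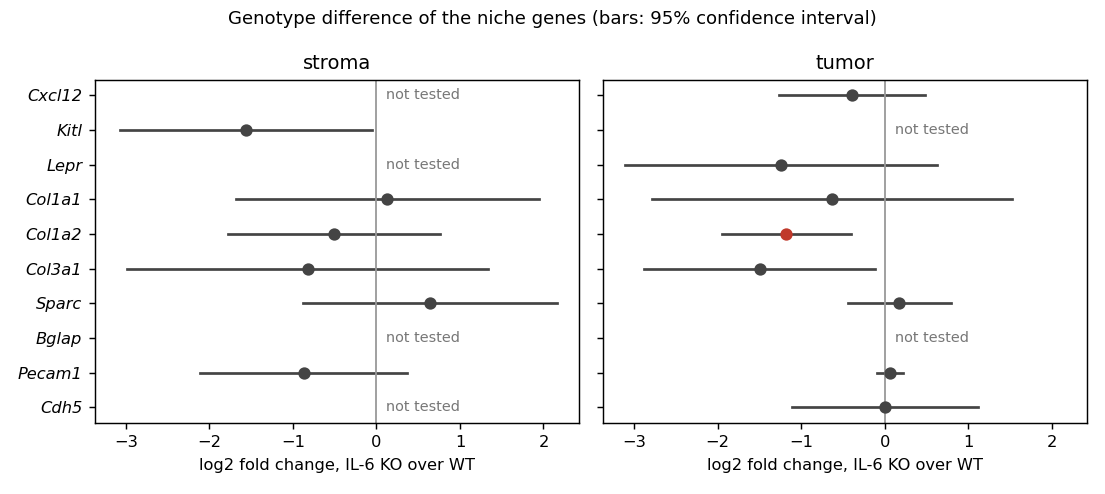
Log2 fold change of IL-6 KO over WT (points) with its 95% confidence interval (bars) from limma for the niche genes in stroma (left) and tumor (right), with the gene that passed an adjusted p of 0.05 in red. In stroma every interval spans 0 except that of Kitl (-3.07 to -0.05), and in tumor those of Col1a2 and Col3a1 lie below 0, with Col1a2 at -1.17 in red and Pecam1 close to 0 with a narrow interval.

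Between genotypes, then, 0 of the 6 niche genes tested in stroma passed an adjusted p of 0.05, where 0.0082% of all genes tested did. At an unadjusted p under 0.05 there was 1 of 6 (Kitl), where 9.15% of all genes fell (limma). In tumor 1 of the 8 tested passed, where 19.8% of all genes did, and 2 of 8 (Col1a2 and Col3a1) had an unadjusted p under 0.05, where 35.1% of all genes did. The groups did not overlap for 1 of 6 in stroma and 0 of 8 in tumor, where 25.6% of all genes in tumor did not overlap (13.6% with IL-6 KO above WT and 12% below). The median log2 fold change was -0.67 over the 6 genes in stroma and -0.51 over the 8 in tumor, against -0.01 over all genes in either table. Marker lists of marrow blood cells went in different directions in stroma, and none of the erythroid, neutrophil or monocyte genes passed adjustment there (limma). Of 14 erythroid genes tested 13 had a negative log2 fold change (median -0.73), and their sum ran from 202535 to 250208 normalized counts in WT and from 92257 to 420269 in IL-6 KO libraries. Of 14 neutrophil genes 11 had a positive one (median 0.59), with sums of 8056 to 15419 in WT and 8226 to 34052 in IL-6 KO libraries. Of 8 monocyte and macrophage genes 7 had a positive one (median 0.76), with sums of 922 to 1575 and of 1326 to 3009. Of 11 B lineage genes 8 had a negative log2 fold change (median -0.57), as did 5 of 8 dendritic genes (median -0.67). Of 6 megakaryocyte and platelet genes 3 were positive and 3 negative (median 0.14). The T and NK and the osteoclast lists had 2 tested genes each, all negative. The part of these cells in the values of the niche genes was not tested. The median standard error over all genes was 0.61 in stroma and 0.14 in tumor. No test was made of whether a genotype difference was larger in one fraction than in the other, because the tables were normalized separately.

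Within tumor, and per kilobase of the longest coding transcript, the order of mean levels was Pecam1, Sparc, Col1a1, Cdh5, Col1a2, Cxcl12, Col3a1, Lepr and Kitl. Pecam1 was above Sparc and Sparc above Col1a1 in 8 of 8 libraries, with no overlap of their ranges. All other neighbours overlapped. Within stroma the order was Col1a1, Sparc, Pecam1, Col1a2, Col3a1 and Kitl, and no neighbours were separated by their ranges. Means per kilobase in stroma ran from 57.3 for Col1a1 to 7.54 for Kitl. With merged exons in place of the longest transcript, Col1a2 and Col3a1 exchanged places in stroma and Col1a2 and Cxcl12 did in tumor.

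Across the 8 stroma libraries, log2 values of Kitl correlated with those of Col3a1 at a Pearson r of 0.76 and with those of Col1a2 at 0.75, and Sparc with Col3a1 at 0.75. Col1a1 and Col1a2 correlated at 0.24. In tumor Col1a2 and Col3a1 did so at 0.86 and Col1a1 and Sparc at -0.72. These values describe 8 libraries that share 2 genotypes and their differences in depth. The genes nearest to Col1a1 in the shape of their stroma values were Rpap2 and Rpgrip1, at Euclidean distances of 1.15 and 1.46 between centred log2 values, against a median of 4.61 over all genes. Those nearest to Col1a2 were Gm8318 and Notch3, at 0.84 and 0.93 against a median of 3.30. No other niche gene was among them. Only the 2 smallest of all distances were taken for each gene, so lying far below the median follows from that choice. The lack of a niche gene among so few says little.

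The wider lists of niche genes were likewise thin in stroma. Of 95 different mesenchymal, osteolineage, matrix and endothelial genes, 40 had a row in stroma and 46 in tumor. Stroma listed 8 of 20 mesenchymal, 3 of 19 osteolineage, 20 of 30 matrix and 9 of 26 endothelial genes. Besides Cxcl12 and Lepr, the mesenchymal genes without a stroma row include Pdgfra, Foxc1, Adipoq, Prrx1 and Grem1, and besides Cdh5 the endothelial ones include Tek, Emcn, Cldn5 and Stab2. Kdr, the main VEGF receptor of endothelium, had a highest stroma value of 13.4 in WT and 2.76 in IL-6 KO. Of the hematopoietic lists stroma had 14 of 15 erythroid, 14 of 14 neutrophil, 12 of 12 B lineage, 10 of 14 monocyte and macrophage, 8 of 10 dendritic, 8 of 14 megakaryocyte, 3 of 12 T and NK and 2 of 8 osteoclast genes. Few of the defining markers of mesenchymal or endothelial cells were thus listed in the fraction called stroma.

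**Figure D4:**
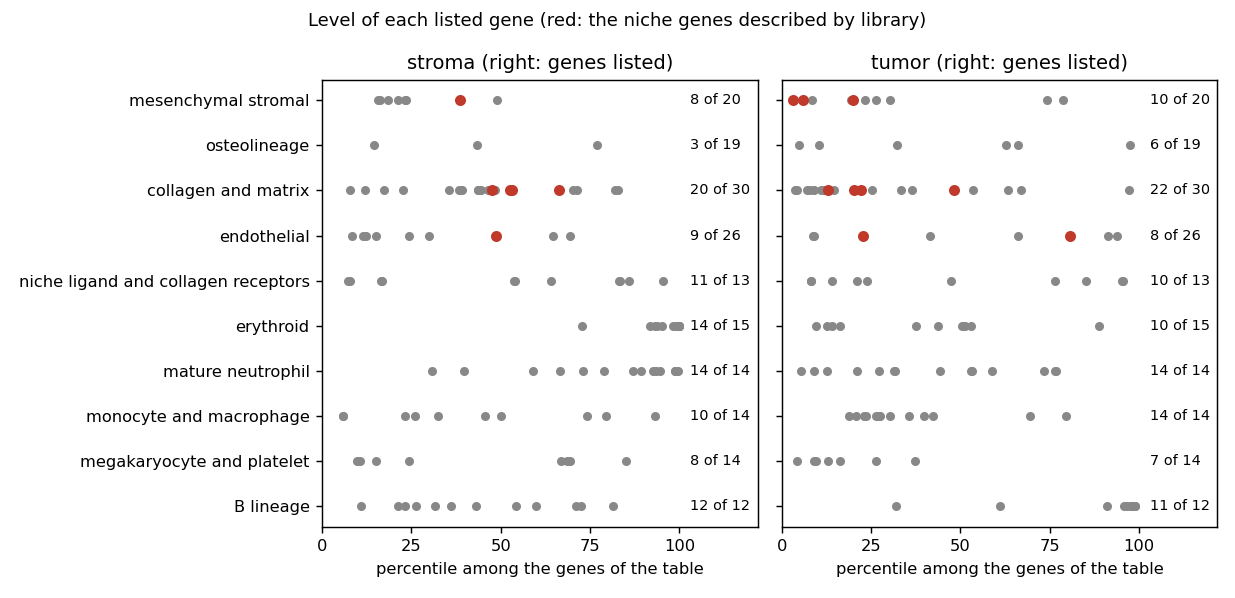
Level of each listed gene as a percentile among the genes of its table (horizontal, mean of the medians of the 2 genotypes) for the niche lists and for markers of other marrow cells, in stroma (left) and tumor (right), with the 10 niche genes in red and the number of each list's genes that have a row at the right. Erythroid genes gather at the upper end in stroma, whereas mesenchymal genes stay under the 50 percentile there; in tumor Pecam1, Eng, Erg and Alpl lie above the 80 percentile.

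In tumor several genes that serve as niche markers stood high. Alpl, the alkaline phosphatase of osteoblasts, had normalized counts of 13743 ± 386 in WT and 16094 ± 998 in IL-6 KO tumor (SD, n = 4 each), at the 97.5 and 97.8 median percentile. Eng, a TGF-beta co-receptor of endothelium, had a mean of 4848 in WT tumor, and Erg, a transcription factor of endothelium and of blood stem cells, one of 5923. Foxc1, a transcription factor of perivascular mesenchymal cells with no row in stroma, had between 1625 and 2322. Cd79a in the same libraries ranked at the 98.6 percentile or above, and the defining endothelial genes Kdr, Tek, Tie1, Emcn and Cldn5 had no row in tumor. Of the osteolineage list 13 of 19 genes had no row there, among them Sp7, Ibsp and Dmp1. Of the mesenchymal list 10 of 20 had none, among them Pdgfra, Adipoq and Prrx1.

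No gene of the niche lists passed the test in stroma. At an unadjusted p under 0.05 (limma) were 2 of 8 mesenchymal genes (Fstl1 and Kitl), 0 of 2 osteolineage, 0 of 18 matrix, 0 of 7 endothelial and 1 of 9 receptor genes, where 9.15% of all genes were. Fstl1, a secreted glycoprotein of mesenchymal cells, had 48.8, 21.0, 561 and 615 normalized counts in WT stroma and 22.9 to 38.3 in IL-6 KO stroma, with a log2 fold change of -2.21 ± 0.96 (SE, limma adjusted p = 0.520). The median log2 fold change was -0.51 for the mesenchymal, 0.36 for the osteolineage, 0.09 for the matrix and 0.36 for the endothelial genes tested.

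In tumor 0 of 9 mesenchymal, 1 of 6 osteolineage, 3 of 19 matrix and 2 of 8 endothelial genes passed, where 10.6% of all genes were called higher and 9.16% lower. Alpl was higher in IL-6 KO tumor by 0.23 on the log2 scale (limma adjusted p = 0.0284), Plod3, a collagen lysyl hydroxylase, by 0.71 (limma adjusted p = 0.00246), and Erg by 0.36 (limma adjusted p = 0.00631). Vwf, the clotting factor of endothelium and platelets, was lower, with a log2 value of -1.93 for IL-6 KO over WT (limma adjusted p = 0.0487), with 18.8 to 44.0 normalized counts in WT tumor and 2.43 to 20.2 in IL-6 KO tumor. The call of Vwf was lost without any library other than IL-6 KO tumor 2 (adjusted p between 0.0664 and 0.119), and that of Alpl without WT tumor 1, 2 or 3 or IL-6 KO tumor 1 or 4 (between 0.0502 and 0.0750, limma). Both calls were also lost with the replicate block (limma adjusted p = 0.0898 for Vwf and 0.0609 for Alpl) and with quantile normalization (0.0853 and 0.0932). The median log2 fold change was -0.34 for the mesenchymal, 0.03 for the osteolineage, -0.39 for the matrix and 0.04 for the endothelial genes tested.

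Fn1, which encodes fibronectin, had the largest difference of the matrix list. Its values were 132, 159, 133 and 85.2 normalized counts in WT tumor and 1843, 2042, 238 and 1535 in IL-6 KO tumor, which differed by a log2 fold change of 3.12 ± 0.60 (SE, limma adjusted p = 0.00800). Without IL-6 KO tumor 1 and WT tumor 2, the libraries highest in Col1a1, it was 2.98 (limma adjusted p = 0.0668). Markers of myeloid cells moved with it. The 14 neutrophil genes summed to between 4716 and 5329 normalized counts in WT tumor and to 17090, 17797, 7246 and 15616 in IL-6 KO tumor 1 to 4, so that the library lowest in Fn1 was also lowest in these genes. Of 13 neutrophil genes tested, 9 passed and all 9 were higher, where 10.6% of all genes were called higher. Of 14 monocyte and macrophage genes 5 passed and all 5 were higher, while 6 of the 14 had a negative log2 fold change. The sum of the monocyte and macrophage genes was between 3605 and 4162 in WT and between 5088 and 8684 in IL-6 KO tumor. The part of these cells in the levels of Fn1, Col1a2 or any other niche gene was not tested.

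All 7 collagen genes tested in tumor had a negative log2 fold change, between -1.51 and -0.63 with a median of -1.37, and 5 of them (Col1a2, Col3a1, Col4a1, Col4a2 and Col6a1) had an unadjusted p under 0.05 (limma), where 35.1% of all genes did. Of these Col1a2 passed adjustment, where 19.8% of all genes did. The median over all genes in tumor was -0.01. The set was put together from the matrix list after its values were seen. Col1a1 turned to 0.37 without WT tumor 2, which was also the highest WT library for Col1a2, Col3a1 and Col4a1. Col1a2 and Col3a1 stayed negative over all alternatives. Col4a1, a chain of basement membrane collagen, had 22.8, 83.3, 20.8 and 33.1 normalized counts in WT tumor and 4.27, 29.9, 6.88 and 17.0 in IL-6 KO tumor (log2 fold change -1.50, limma adjusted p = 0.118). In stroma 5 of 7 collagen genes had a negative log2 fold change, with a median of -0.10 and none at an unadjusted p under 0.05. Apart from Col1a1, no value of these genes in a tumor library was above 83.3 normalized counts. In tumor depth ran the other way than in stroma, since 25.3 M to 38.3 M reads were left in WT and 39.7 M to 73.4 M in IL-6 KO libraries without Rn7s1 and CT010467.1.

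Of 13 receptor genes of niche ligands and collagens, 11 had a row in stroma. Cxcr4, the signaling receptor of CXCL12, had 371 to 672 normalized counts in WT and 206 to 348 in IL-6 KO libraries of stroma, with a log2 fold change of -0.61 ± 0.34 (SE, limma adjusted p = 0.608). In tumor Cxcr4 stood at the 85.1 median percentile in either genotype, and its log2 fold change was 0.05 ± 0.11 (SE, limma adjusted p = 0.778). Ackr3, the atypical receptor of CXCL12, had 7.12 to 32.1 normalized counts in WT and 3.84 to 9.78 in IL-6 KO libraries of tumor. Itga4, the integrin chain that binds VCAM1 and fibronectin, had 1615, 1729, 1260 and 1662 normalized counts in the WT libraries of stroma and 547, 870.1, 900.5 and 1065 in the IL-6 KO libraries. Its log2 fold change there was -0.92 ± 0.30 (SE, unadjusted p = 0.00909), which did not pass adjustment (limma adjusted p = 0.432). Kit, the receptor of stem cell factor, had 39.1 to 242 normalized counts in WT and 11.9 to 187 in IL-6 KO libraries of stroma, and 3.36 to 95.3 in tumor. Of the receptor list 0 of 10 genes passed in tumor and 0 of 9 in stroma, where 19.8% and 0.0082% of all genes did, and the median log2 fold change was 0.07 and -0.49.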

How the data were processed

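RNA of 16 sorted samples was depleted of ribosomal RNA and sequenced single-end at 75 nucleotides. The authors quantified reads with salmon 1.3.0 on mm10 and normalized estimated counts with DESeq2 1.28.1, separately for stroma and tumor. The deposited normalized counts are a scaled signal, not whole reads. The authors' own tables of comparisons (log2 fold changes, statistics and p-values) were not used.

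Samples were grouped by their labels. Genotypes were tested within a table with limma 3.58.1 (R 4.3.3) on log2(normalized count + 1), with a variance trend, for genes with a mean over 10, two-sided, Benjamini-Hochberg adjusted at 0.05. Fold changes on this scale understate those of low genes. All 6 niche genes with a row in stroma and 8 of 9 in tumor passed the minimum. No count model was fitted, for want of whole reads. Approximate reads used the step of which recurring low values are whole multiples (within 0.01). The 8 steps of a table multiply to 1.00, but only 2.84% to 3.77% of low values in stroma libraries and 9.65% to 10.6% in tumor libraries were whole, so reads are estimates and no counting interval was given.

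The niche genes and gene lists were chosen with earlier results of these data known. Named genes were the 10 niche genes and their copies, up to 4 genes per list and table with the smallest p, the 2 genes nearest in stroma to niche genes with a mean of at least 100, and defining markers. Genes cited as lacking a row, Eng, Kdr and Tie1, Col4a1 and Col4a2, Rn7s1, CT010467.1 and Il6 were chosen after values or rows were seen. Hbb-bs was matched by Ensembl identifier. Positions, lengths and copies came from GENCODE vM21 (GRCm38), in which 13062 of 13344 stroma and 14790 of 15080 tumor identifiers were found with the same version. The test was checked on simulated data with 200 genes changed by a log2 fold change of 2, and recovered 23.5% of them in stroma (11746 genes) and 81% in tumor (14207 genes). Alternatives were pseudocounts of 0.5 and 5, no minimum or a mean over 50, quantile normalization, median centring, array weights, a block for the replicate number, and each library left out. The merged exon lengths and the fits without the 2 libraries highest in Col1a1 were added after the values were seen. Python 3.11.15 drew the figures.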

Additional observations from a re-analysis of the deposited data

Results flagged for a closer look

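Of 30 groups of 4 libraries checked for a value far from the others (Dixon's test), 4 had one. The chance rate of about 1 in 20 holds only for normally distributed values. The test was run on normalized counts without a log scale, so 4 of 30 was not compared with that rate. Col1a1 had 1517 normalized counts in IL-6 KO stroma 1, where the next highest library of the group had 174. It had 452 in WT tumor 2, where the next had 32.1, and 147 in IL-6 KO tumor 1, where the next had 27.8. Lepr had 54.5 in WT tumor 4, where the next had 6.84. What sets these 4 values apart was not tested.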

How the results depend on the processing

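In stroma the number of genes called (1) was 4 with array weights, between 1 and 3 with each library left out, and 2 without the 2 libraries highest in Col1a1 of their genotype. No niche gene and no gene of the niche lists was called there under any alternative. In tumor the number of genes called (2870) was 653 without those 2 libraries and between 1572 and 3328 with each library left out. The niche genes called there (1) were 0 with a mean over 50 (Col1a2 is then not tested), with quantile normalization, with the replicate block and without the 2 libraries, and between 0 and 1 with each library left out. Genes of the niche lists called in tumor (6) were 3 with quantile normalization, 10 with array weights, 2 without the 2 libraries and between 3 and 8 with each library left out. Col1a2 in tumor had a log2 fold change of -0.89 with quantile normalization and -1.09 without the 2 libraries (limma adjusted p = 0.1203). By rank among genes with a mean over 10, Col1a2 in IL-6 KO tumor moved from the 18.2 to the 14.9 percentile and Pecam1 from the 80.8 to the 80.0.

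The log2 fold change turned sign for Col1a1 in stroma (array weights -0.49, without the 2 libraries -0.46, and between -0.84 and 0.61 with each library left out, as for the ranges that follow), Col3a1 in stroma (between -1.50 and 0.37), Col1a1 in tumor (array weights 0.020, and between -1.30 and 0.37), Sparc in tumor (-0.15 without the 2 libraries, and between -0.11 and 0.32) and Cdh5 in tumor (between -0.35 and 0.41). None of these values passed the test, and the cause was not tested.

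Correlations of same-numbered deviations between WT and IL-6 KO libraries lay between -0.03 and 0.13 in stroma and between -0.02 and 0.00 in tumor. Between stroma and tumor libraries of the same genotype and number they lay between -0.06 and 0.11. Of 8 stroma libraries, 3 correlated best with the tumor library of their own number. Stroma and tumor are different cells, so low correlations do not show that same-numbered libraries came from different mice. Whether they came from the same mouse was not tested. With the replicate block Col1a2 in tumor kept its log2 fold change of -1.17 at an adjusted p of 0.0896 (limma), and 4 genes of the niche lists were called. Depth limits niche genes in both fractions. A library with about 14.2 reads or fewer occurred for Kitl, Col3a1, Sparc and Pecam1 in IL-6 KO stroma, for Kitl, Lepr, Cdh5, Col3a1, Cxcl12 and Col1a1 in WT tumor, and for Kitl, Lepr, Cdh5, Col3a1, Col1a1 and Col1a2 in IL-6 KO tumor.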
